A study of Homo sapiens with 3 samples.

Results

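The OVOL, GRHL and ESRP genes and the opposing ZEB and SNAI genes were followed in KYSE140, a human cell line established from a squamous carcinoma of the oesophagus, with and without cisplatin, a platinum drug that crosslinks DNA. The 10 genes were OVOL1, OVOL2, GRHL1, GRHL2, GRHL3, ESRP1, ESRP2, ZEB1, ZEB2 and SNAI2, chosen by name. Members were the probe sets that the platform annotation pairs with exactly 1 of these symbols. That gave 20 probe sets of 9 genes, out of 19775 genes in all. ESRP2 had no probe set with 1 symbol and is not described.

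One group was KYSE140 left untreated (1 array), and the other was KYSE140 given cisplatin at a labelled 10 mM for 12 h (2 arrays, titled B1 and B2). All cells were from the same line, grown in RPMI medium with serum, and the labels name no other agent. The labelled unit is kept as given, although micromolar doses of cisplatin are the usual ones in culture. The labels do not say whether B1 and B2 are separate cultures, so the spread between them may be technical.

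These genes set epithelial state. The OVOL zinc finger proteins are transcriptional repressors that hold ZEB1 and other mesenchymal genes down, and the grainyhead-like factors GRHL1, GRHL2 and GRHL3 activate genes of cell junctions and of the epidermal barrier. ESRP1 and ESRP2 bind RNA and direct epithelial exon choice in transcripts such as those of FGFR2 and CD44. ZEB1, ZEB2 and SNAI2 (Slug) bind E-box sequences and repress epithelial genes, and SNAI2 is also a normal gene of basal squamous cells. The microRNAs of the miR-200 family and miR-205 target ZEB1 and ZEB2 transcripts, and ZEB1 in turn represses the miR-200 genes.

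Mature microRNAs were not measured, but the arrays hold probe sets for MIR200CHG, the host transcript of miR-200c and miR-141, and for MIR205HG, the host of miR-205. The mature forms are printed to show which sequences these host transcripts carry. Capitals mark the seed, bases 2 to 8, and the sequences are those of RefSeq on GRCh38.p14.
hsa-miR-200c-3p: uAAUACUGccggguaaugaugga
hsa-miR-141-3p: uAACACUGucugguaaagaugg
hsa-miR-205-5p: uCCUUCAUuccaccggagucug
No seed was shared among the 3, and those of miR-200c-3p and miR-141-3p belong to the 2 seed groups of the miR-200 family.

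Promoter windows of 300 bases (250 before to 50 after an annotated start, RefSeq, GRCh38.p14) were matched for 4 of the 10 genes, GRHL1, GRHL3, ZEB1 and ZEB2, with 11 windows. Of these, 7 were of ZEB1. The E-box CACCTG, bound by SNAI and ZEB proteins, was searched on both strands, where it reads CAGGTG on the other. It was found in 3 of the 11 windows, against 20.6% of 35116 windows of the same length. The stretches below show where it lies before the starts of GRHL3 and ZEB1, the members with a match, and of MIR200CHG. Each is the 100 bases before a start on the + strand, with the match in capitals.
GRHL3, first start, chr1:24319257-24319356: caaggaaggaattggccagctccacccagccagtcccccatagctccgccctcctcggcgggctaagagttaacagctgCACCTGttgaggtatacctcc
ZEB1, first start, chr10:31318317-31318416: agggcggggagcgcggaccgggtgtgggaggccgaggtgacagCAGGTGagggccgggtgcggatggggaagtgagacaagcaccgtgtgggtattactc
ZEB1, the third start, chr10:31319116-31319215: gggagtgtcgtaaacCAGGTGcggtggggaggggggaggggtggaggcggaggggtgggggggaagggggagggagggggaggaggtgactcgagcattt
MIR200CHG, chr12:6963145-6963244: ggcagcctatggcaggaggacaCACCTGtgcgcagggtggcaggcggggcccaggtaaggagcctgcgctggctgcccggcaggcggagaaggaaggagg
The match begins 21 bases before the GRHL3 start, 57 and 85 bases before these ZEB1 starts, and 78 bases before that of MIR200CHG. The OVO motif CCGTTA, which reads TAACGG on the other strand, was found in 2 of the 11 windows, 1 of ZEB1 and that of ZEB2, against 3.07% of all windows. The grainyhead motif AACCNGTT, which reads AACNGGTT on the other strand, was found in 0 of the 11, against 1.73%. None of these matches overlapped another, and a match is a description of letters, not a bound site.

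Over all probe sets the median intensity was 34.8 (untreated), 35.9 (B1) and 35.6 (B2). B2 stood apart: over all genes, log2 differences had an SD of 0.33 for B1 against untreated, 0.60 for B2 against untreated and 0.56 for B2 against B1. Of 8 squamous markers, 5 were measured, and their summed intensity was 12831 untreated, 13366 in B1 and 22265 in B2. Among them KRT14, a basal keratin, differed from untreated by -0.01 in B1 and 3.10 in B2 on the log2 scale, and KRT5 by 0.14 and 1.80. Markers of leukocytes (5 genes), endothelium (4) and glandular epithelium (4) had summed intensities of at most 155, 97.0 and 108 in any array, and those of fibroblasts (6) ran from 237 to 276. The part of these marker levels in the results was not tested. Because B2 stands apart, every difference is given for B1 and B2 separately, so that the B1 value is the result without B2.

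All log2 differences are cisplatin minus untreated, and a gene is represented by its brightest probe set unless another is named. No gene passed limma's test (0 of 19775, 0%, at an adjusted p of 0.05), and at an unadjusted p under 0.05 there were 151 higher genes (0.764%) and 414 lower genes (2.09%). Among the 9 measured members, 2 had an unadjusted p under 0.05, OVOL1 (higher) and GRHL2 (lower), and the limma adjusted p lay between 0.97 and 0.99 for all 9. The fit had 1 residual degree of freedom. An exact two-sided permutation test of 2 arrays against 1 has 3 arrangements and cannot give a p below 0.333. Differences are therefore described against the gap between B1 and B2, and no member is said to have changed.

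OVOL1 was the member with the largest positive difference in each cisplatin array. Its brighter probe set, 229396_at, measured an intensity of 130 without cisplatin, 349 in B1 and 404 in B2. Both cisplatin arrays lay well above the untreated array and close to each other. The log2 differences were 1.43 and 1.64, with a mean of 1.53 (SE 0.21), which is 2.89-fold. The SE draws on a prior shared by all genes, and the SD of the cisplatin pair itself was 0.15. The dimmer probe set, 206604_at, read 50.8 untreated, 65.9 in B1 and 77.6 in B2, the same order with smaller differences of 0.38 and 0.61. Averaged over both probe sets the log2 differences were 0.90 in B1 and 1.12 in B2 (mean 1.01), so that B1 was then short of 2-fold. These are values of whole cultures, in which a different number of cells with a transcript and a different amount of it per cell cannot be told apart. Among the 10209 brighter genes, those averaging 6 or more on the log2 scale (an intensity of 64), the OVOL1 difference stood at percentile 99.9 in B1 and 99.1 in B2. By its brightest probe set OVOL1 was the only one of the 9 members at least 2-fold from untreated in the same direction in both arrays, a size that 0.142% of all genes reached upwards and 0.678% downwards. OVOL1-AS1, an antisense transcript at the same locus picked for its position after values were seen, read 48.2 untreated, 52.9 in B1 and 41.1 in B2. It was therefore above untreated in B1 and below it in B2.

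OVOL2, the paralogue of OVOL1, did not share this pattern. Probe set 211778_s_at had intensities of 314 untreated, 161 in B1 and 254 in B2. Both cisplatin arrays were lower than the untreated array, B1 by more. The log2 differences were -0.96 and -0.31 (mean -0.64, SE 0.38), and the mean was smaller than the gap of 0.66 between B1 and B2. The second probe set, 206048_at, read 38.8, 36.5 and 40.0, near the median of each array, with no consistent side. A test of the difference between the paralogues was not made.

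**Figure D1:**
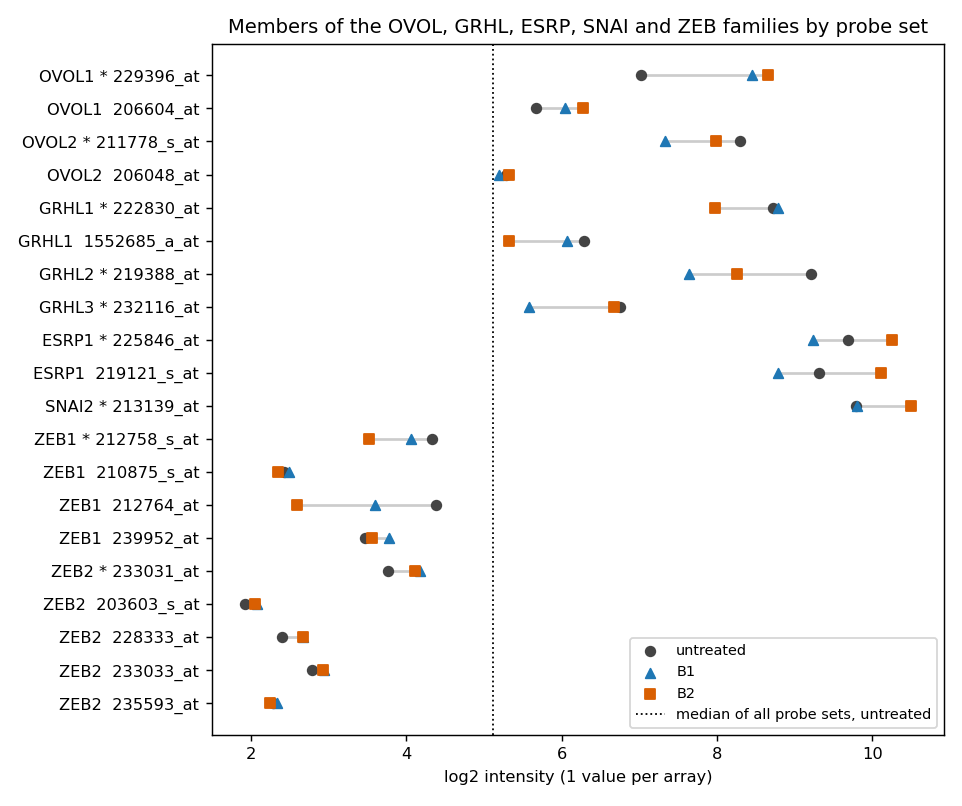
Log2 intensity of each of the 20 member probe sets (rows; * marks the brightest of a gene) in the untreated array, B1 and B2, 1 point per array, with the median of all probe sets in the untreated array as a dotted line. OVOL1 has both cisplatin points to the right of untreated, GRHL2 has both to the left, and all ZEB1 and ZEB2 points lie left of the dotted line.

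GRHL2, the grainyhead factor that activates CDH1 and claudin genes in many epithelia, was lower in both cisplatin arrays. Its 1 probe set, 219388_at, measured an intensity of 593 without cisplatin, 198 in B1 and 305 in B2. The untreated array lay above both treated arrays, and B1 was the lowest of the 3. Log2 differences were -1.58 and -0.96 (mean -1.27, SE 0.36), so that the untreated level was 2.41-fold the cisplatin mean and the difference exceeded the gap of 0.62 within the pair. B2 was just short of the 2-fold mark. Among the brighter genes it stood at percentile 0.480 in B1 and 7.98 in B2.

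GRHL3, which drives epidermal barrier genes, was low in B1 alone. Intensities were 108 untreated, 47.7 in B1 and 102 in B2, so that B2 lay beside the untreated array. The log2 differences of -1.18 and -0.08 (mean -0.63, SE 0.58) were further apart than their mean was from 0. GRHL1, a regulator of desmosomal cadherin genes, was lowest in B2 instead. Probe set 222830_at read 423 untreated, 442 in B1 and 250 in B2, and 1552685_a_at read 77.7, 67.0 and 39.9. In both GRHL1 probe sets B2 was the lowest array, by -0.75 and -0.96 from untreated on the log2 scale, while B1 was within 0.07 of untreated in the first and -0.21 from it in the second. The 3 grainyhead genes thus had no common order of arrays.

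ESRP1, the epithelial splicing factor, had its lowest value in B1 and its highest in B2. Probe set 225846_at read 821 untreated, 603 in B1 and 1215 in B2, and 219121_s_at read 634, 441 and 1109. The untreated array lay between the cisplatin arrays in both probe sets. Log2 differences were -0.44 and 0.57 in the first (mean 0.06, SE 0.54) and -0.52 and 0.81 in the second. The gap of 1.01 between the cisplatin arrays was far larger than the mean difference, and no direction can be given for cisplatin.

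Of the 3 measured mesenchymal members, only SNAI2 was bright. Its probe set, 213139_at, read 882 untreated, 895 in B1 and 1447 in B2. The untreated array and B1 were alike, and B2 alone was higher. The differences were 0.02 and 0.71 (mean 0.37, SE 0.39) with a gap of 0.69. The sign in B1 turned negative when each array was centred on its median, and also with the trend of genomic span removed (-0.07). The array with the higher SNAI2 value was the one in which KRT14 and KRT5 were also higher, and the part of that was not tested.

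ZEB1 and ZEB2 were dim throughout. The 4 ZEB1 probe sets had intensities between 5.10 and 20.9 and the 5 ZEB2 probe sets between 3.79 and 18.0, all below the median of all probe sets in each array. The highest of them stood at percentile 37.2 (ZEB1) and 32.5 (ZEB2). Without detection calls a dim transcript cannot be told from an undetected one. ZEB1 212758_s_at read 20.03 untreated, 16.7 in B1 and 11.5 in B2, differences of -0.26 and -0.80 (mean -0.53, SE 0.33) against a gap of 0.54. ZEB1 212764_at had the same order, with 20.9, 12.1 and 6.01, whereas 239952_at read 11.1, 13.7 and 11.8 and 210875_s_at 5.35, 5.63 and 5.10. The ZEB1 probe sets therefore disagreed on the side. ZEB2 233031_at read 13.6 untreated, 18.0 in B1 and 17.2 in B2, differences of 0.40 and 0.34 (mean 0.37, SE 0.19) against a gap of 0.06. Of the other ZEB2 probe sets, 203603_s_at, 228333_at and 233033_at had both cisplatin arrays above untreated, by 0.13 to 0.27 on the log2 scale, and 235593_at had B2 below it. ZEB1-AS1, which lies beside ZEB1 and was also picked for its position after values were seen, read 33.95, 43.4 and 18.4.

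By gene, 3 of the 9 members (OVOL1, ZEB2 and SNAI2) were higher in both cisplatin arrays, against 39.2% of all genes, and 4 (OVOL2, GRHL2, GRHL3 and ZEB1) were lower in both, against 27.4%. These shares do not set the members apart from the background. When all probe sets of a gene were averaged, GRHL1 joined the lower genes. After median centring, and with the span trend removed, SNAI2 left the higher ones. A mean difference larger than the gap between B1 and B2 was found upwards in OVOL1 and ZEB2 (25.8% of all genes) and downwards in GRHL2 (16.8%). Among the 10209 brighter genes the balance was the other way, with 1685 higher and 2076 lower. After quantile normalization ZEB1, and after median centring OVOL2 and ZEB1, and with the span trend removed OVOL2, also lay below untreated by more than the gap. The median log2 difference of the 9 members was -0.26 in B1 and -0.08 in B2, against 0.03 and 0.05 over all genes. B1 was the lowest of the 3 arrays for OVOL2, GRHL2, GRHL3 and ESRP1, 4 of the 6 measured epithelial members, a pattern picked out after the values were seen. It was the lowest array for 27% of all genes and for 30.3% of the brighter genes.

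**Figure D2:**
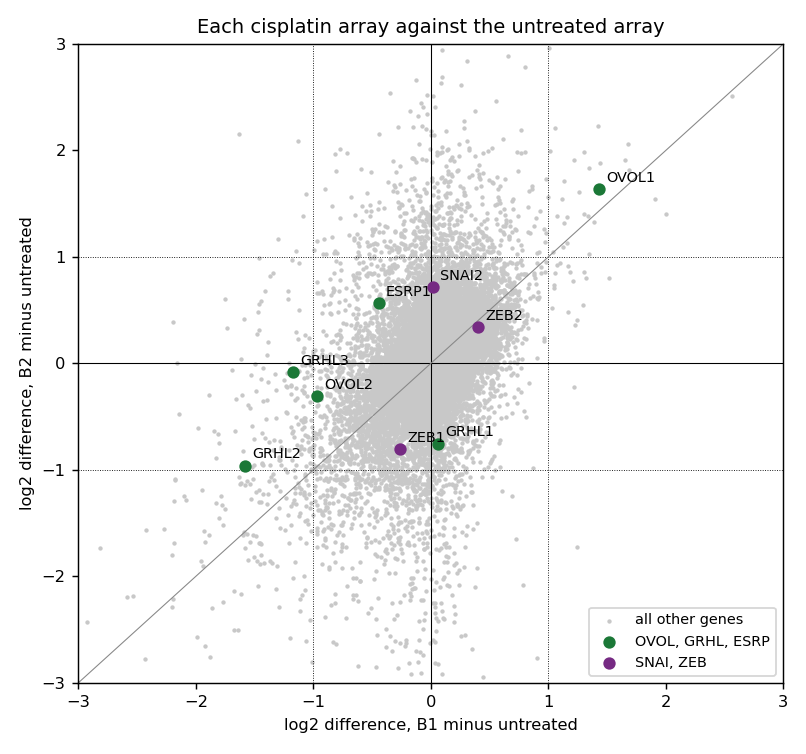
Log2 difference from the untreated array in B1 (horizontal axis) and in B2 (vertical axis), 1 point per gene, with the 9 members in colour, dotted lines at 2-fold and the diagonal of equal differences; 74 genes lie outside the axes. Both differences share the untreated array. OVOL1 lies in the upper right beyond 2-fold on both axes, GRHL2 in the lower left, and ESRP1 and SNAI2 above the diagonal.

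Genomic span, the distance between the ends of the annotated gene, was set beside the values because long genes were lower after cisplatin in these arrays. SNAI2 (3.83 kb) and OVOL1 (10.2 kb) were the shortest members. OVOL2 (35.04 kb), GRHL3 (45.1 kb), GRHL1 (50.6 kb) and ESRP1 (66.3 kb) lay between. ZEB2 (136 kb), GRHL2 (189 kb) and ZEB1 (211 kb) were the 3 members over 100 kb. Among brighter genes of like span, the median difference was -0.51 in B1 and -0.38 in B2 for the span of GRHL2, and 0.08 and 0.10 for that of OVOL1. GRHL2 was lower than its group and OVOL1 higher than its group in each array. Over all genes of like span, dim ones included, the medians were -0.22 and -0.10 for GRHL2, and 0.09 and 0.10 for OVOL1. After these had been taken off, the differences were -1.36 and -0.86 for GRHL2, and 1.34 and 1.54 for OVOL1. For GRHL2 the medians of the brighter genes were further below 0, so that less would remain with them. The part of span in these results was not tested further.

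**Figure D3:**
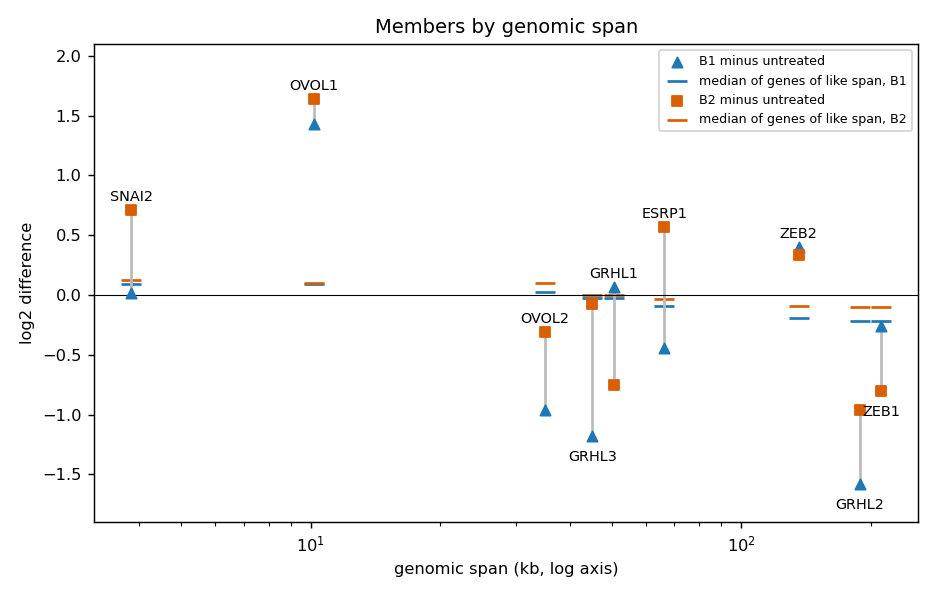
Log2 difference from untreated in B1 (triangles) and B2 (squares) for the 9 members against genomic span in kb (log axis), with short bars for the median of all genes of like span in each array. OVOL1 stands above its bars and GRHL2 below its bars in both arrays, while GRHL1, GRHL3 and ESRP1 have arrays far apart.

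The genes whose differences lay nearest to those of OVOL1, by Euclidean distance of the B1 and B2 log2 differences among the brighter genes, were MYLIP (distance 0.17), RHOB (0.24) and TOB1 (0.27). MYLIP, a ubiquitin ligase of the LDL receptor, differed by 1.26 and 1.61. RHOB and MYLIP have 5 and 6 probe sets, and the mean over all of them was 0.45 for RHOB and 1.02 for MYLIP. Nearest to GRHL2 were DNM3 (0.04), ANKS1A (0.06) and LRCH1 (0.11), with spans of 577, 209 and 200 kb. DNM3, a dynamin, differed by -1.61 and -0.99. Its 3 probe sets together gave a mean of -0.54. Likeness over 3 arrays is a description, and these neighbours say nothing of shared control.

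Other transcription factors of the epithelial to mesenchymal transition had no common direction. Of 10 measured, 3 were higher and 1 lower in both arrays (39.2% and 27.4% of all genes), 0 met the 2-fold size and 0 passed limma (0 also at an unadjusted p under 0.05), and the median log2 difference was -0.07 in B1 and 0.42 in B2. SNAI1, the paralogue of SNAI2, read 31.0, 43.2 and 46.9. FOXC2, a forkhead factor, read 94.4, 106 and 220, with B2 alone far from untreated.

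Other epithelial transcription factors went both ways. Of 11 measured, both arrays were higher in 5 and lower in 3, near the 39.2% and 27.4% of all genes, and the medians were 0.09 and 0.08. FOXA1, a pioneer factor, read 55.3 untreated, 83.6 in B1 and 101 in B2, differences of 0.60 and 0.87, and both of its cisplatin arrays lay above untreated. SOX2, a squamous lineage factor, read 5656, 2416 and 5308, low in B1 alone as GRHL3 was. GATA3 read 1022, 883 and 165, low in B2 alone. KLF4, a factor of squamous differentiation, differed by 0.55 and 0.74.

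Relatives and partners of the grainyhead and OVOL factors were mostly close to untreated. Of 5, 3 were higher and 1 lower in both arrays (39.2% and 27.4% of all genes). UBP1 differed by 0.08 and 0.04 and LMO4, a partner of GRHL3, by 0.03 and 0.04. OVOL3, a dim relative of OVOL1, read 30.4, 38.0 and 39.9, differences of 0.32 and 0.39. TFCP2, of the CP2 branch of the grainyhead family, read 262, 215 and 50.7, and the B2 value stood apart from the other two.

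Epithelial adhesion and polarity genes include targets of GRHL2 and of the repressors. Of 15 measured, 6 were higher and 5 lower in both arrays, near the 39.2% and 27.4% of all genes, the medians were -0.03 in B1 and 0.17 in B2, and 0 met the 2-fold size. CDH1 (E-cadherin) read 2186 untreated, 1965 in B1 and 2271 in B2, so that the untreated value lay between the treated ones while GRHL2 was lower in both. EPCAM, a cell adhesion molecule, differed by -0.01 and -0.12. CLDN4, a tight junction claudin, read 283, 501 and 357, above untreated in both arrays, but its mean over 2 probe sets was 0.23 instead of 0.58. CLDN1 read 52.6, 57.6 and 239, and LLGL2, a polarity gene, 75.2, 80.0 and 118. In both of these B2 carried most of the difference, and over 2 probe sets the mean for LLGL2 was 0.14 instead of 0.37.

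Mesenchymal genes differed mainly in B2, and in both directions. Of 14 measured, 4 were higher and 1 lower in both arrays (39.2% and 27.4% of all genes). The medians were -0.06 in B1 and 0.33 in B2. VIM (vimentin) read 78.8, 97.5 and 565, and CDH2 (N-cadherin) 166, 132 and 617. Over both of its probe sets the mean log2 difference of VIM was 0.71 instead of 1.57. In B2 it was 1.42 instead of 2.84, so that the brightest probe set carried the difference. FN1 (fibronectin) read 516, 432 and 54.0, so that B2 was far below the other two. By their brightest probe sets, VIM and FN1 thus stood on opposite sides in the array with the higher SNAI2 value.

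Among the transcripts listed here whose splicing ESRP proteins regulate, FGFR2 differed most from untreated in both arrays by brightest probe set. Of 7 measured, 0 were higher and 5 lower in both arrays, against 39.2% and 27.4% of all genes, and the other two, SCRIB and EXOC7, were lower in B1 and higher in B2 (0.67 and 0.21). The medians were -0.19 and -0.06. With all probe sets averaged, EXOC7 was higher in both arrays (0.20 and 0.34). All 7 were among the brighter genes, whereas the shares over all genes include dim ones. The brighter genes had medians of -0.02 in B1 and -0.01 in B2, and lower genes outnumbered higher ones beyond the gap of the pair. FGFR2, whose exon choice separates epithelial from mesenchymal receptor forms, read 431 untreated, 177 in B1 and 148 in B2, differences of -1.29 and -1.54 (SE 0.22). Both arrays were over 2-fold below untreated, yet over its 11 probe sets the mean difference was -0.38 instead of -1.41. On that average CD44 differed more than FGFR2 in the mean (-0.55) and in B2 (-0.80 against -0.37). CD44, a hyaluronan receptor, read 2692, 2359 and 1444, and ENAH, an actin regulator, 1157, 918 and 1135. FGFR2, ENAH and ARHGEF11 span 120, 167 and 112 kb. Brighter genes of like span had medians of -0.35 to -0.51 in B1 and -0.32 to -0.38 in B2. With the median of all genes of like span taken off, FGFR2, CD44 and SLK stayed lower in both arrays. ARHGEF11 then lay higher in both (0.09 and 0.03), and ENAH differed by -0.12 and 0.07. Set against the medians of brighter genes of like span, only FGFR2 was lower in both arrays. CD44 lay above its median in B1 (-0.19 against -0.26) and SLK in B2 (-0.10 against -0.16). ENAH and ARHGEF11 lay above theirs in both arrays. Isoforms were not told apart, so these values say nothing of exon choice.

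By brightest probe set, other splicing factors of epithelial and mesenchymal isoforms were lower in 7 of 10 genes in both arrays and higher in 0. The shares of all genes were 27.4% and 39.2%, and the medians of the list were -0.45 and -0.39. With all probe sets of a gene averaged, the same 7 stayed lower in both arrays. PTBP1 (0.11 and 0.19), HNRNPM (0.07 and 0.09) and SRSF1 (0.36 and 0.30) were then higher in both. All 10 were among the brighter genes, in which lower genes outnumbered higher ones beyond the gap of the pair. RBM47, an epithelial RNA-binding protein, read 992 untreated, 433 in B1 and 166 in B2, and MBNL2 read 437, 253 and 178. MBNL1 read 2218, 1383 and 1301. These 3 span 208, 252 and 222 kb, and brighter genes of like span had medians of -0.51 to -0.56 in B1 and -0.38 to -0.48 in B2. In all of them both cisplatin arrays lay below untreated, and the mean over all probe sets was nearer 0, at -0.998 for RBM47, -0.69 for MBNL2 and -0.33 for MBNL1.

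Corepressors that work with ZEB and SNAI proteins were lower in both arrays in 6 of 9 genes and higher in 0, against 27.4% and 39.2% of all genes, with medians of -0.25 and -0.12. The remaining 3, SMARCA4, HDAC1 and HDAC2, were lower in B1 and higher in B2 (0.46, 0.15 and 0.16). With all probe sets averaged, HDAC2 was higher in both arrays (0.07 and 0.14). All 9 were among the brighter genes, in which lower genes outnumbered higher ones beyond the gap of the pair. CTBP2 read 3181, 1613 and 1958, and RCOR1 437, 264 and 217, each with both cisplatin arrays below untreated (differences of -0.98 and -0.70, and of -0.72 and -1.01). These genes span 178 and 138 kb, and over 2 probe sets the mean for RCOR1 was -0.37 instead of -0.87. EZH2, a histone methyltransferase, differed by -0.13 and -0.52.

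The microRNA host transcripts whose products are printed above had untreated values between those of the cisplatin arrays. MIR200CHG read 67.0 untreated, 61.9 in B1 and 103 in B2, and MIR205HG read 73.7, 46.3 and 118. Their gaps between B1 and B2, 0.73 and 1.35 on the log2 scale, were larger than their mean differences of 0.25 and 0.005. A probe set annotated to MIR205, chosen for its name, read 135, 142 and 164.

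**Figure D4:**
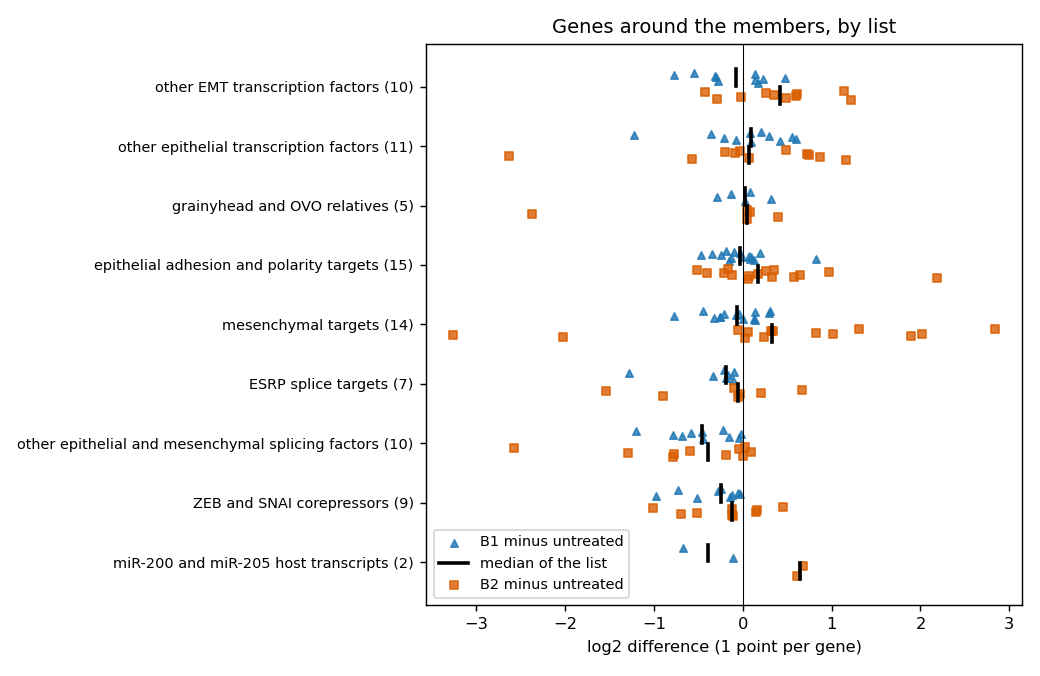
Log2 difference from untreated in B1 (triangles) and B2 (squares), 1 point per gene, for the 9 lists of genes around the members, with the number measured in brackets and black bars for list medians. The other splicing factors have medians of -0.45 and -0.39, whereas mesenchymal genes spread from -3.26 to 2.84 in B2.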

How the data were processed

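Total RNA of 3 KYSE140 samples was labelled as biotin cRNA and hybridised to Affymetrix arrays, per the labels' protocols. The authors deposited intensities of 54675 probe sets, made with RMA per the submitters' processing notes. Their range shows a linear scale, and no source used here gives the RMA version or detection calls. Log2 was taken with no pseudocount. Of 54613 probe sets that were not controls, 41091 carried 1 symbol, 1801 several and 11721 none. Symbols were updated by gene number to GRCh38.p14, and each of 19775 genes was represented by its brightest probe set.

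The test was limma 3.58.1 under R 4.3.3 on log2 values (lmFit, eBayes; 2.01 prior degrees of freedom), with Benjamini-Hochberg adjustment over all genes, and separately over all probe sets (0 of 54613 passed). It assumes that untreated cells would vary as the cisplatin pair does. The fit was tested on simulated data. The size rules, 2-fold in both arrays and beyond the gap of the pair, carry no test. Genes named besides the members were those of each list at 2-fold in both arrays, or up to 3 with the largest mean difference on 1 side in both and a mean log2 of at least 6, and the 3 nearest to OVOL1 and to GRHL2; others named from the lists were chosen after their values were seen. Members and lists were chosen with earlier results of these data known. Precision is limited by the number of arrays, 3.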

Additional observations from a re-analysis of the deposited data

How the results depend on the processing

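Under 6 alternatives (mean of all probe sets, quantile normalization, median centring, a mean log2 of at least 6, a trended variance prior, and the span trend removed) all 52 mean differences of members kept their sign. ZEB1 and ZEB2 had none at a mean log2 of at least 6. The trended prior and the limit on mean log2 leave a mean difference as it is, so its sign could not turn there. The same holds for averaging probe sets in GRHL2, GRHL3 and SNAI2, which have 1 each. With 1 cisplatin array at a time, 2 of 18 values reversed, both without B2: ESRP1 ranged from -0.44 to 0.57 and GRHL1 from -0.75 to 0.065. No gene passed limma in any of these fits. The counts of 28 higher and 134 lower genes at 2-fold in both arrays became 189 and 524 at 1.5-fold, and 38 lower with the mean of all probe sets; with 1 cisplatin array they ran from 47 to 591 higher and from 299 to 890 lower. Genes beyond the gap of the pair (5101 higher, 3320 lower) numbered 1685 higher and 2076 lower at a mean log2 of at least 6, where 10209 genes were tested. Lower genes thus outnumbered higher ones there, the reverse of the order over all genes. With 1 array in each group no limma test or gap exists. No paired analysis was possible because the labels give the untreated array no replicate number and the groups share fewer than 2. Otherwise the cause of a moved value was not tested.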
